A study of Mus musculus with 16 samples.

Results

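The genes described here are 10 markers of the endothelium, the cell layer that lines blood vessels, in hamstring muscle of mice with experimental myositis. They were chosen by name, and their rows were taken from a table of normalized counts that lists 26382 genes. Of these, 8 are identity genes that endothelial cells express at rest (*Pecam1*, *Cdh5*, *Kdr*, *Tek*, *Vwf*, *Icam2*, *Esam* and *Plvap*), and 2 are the inducible selectins *Sele* and *Selp*. All 10 passed the filter on low values (a mean of at least 0.5 normalized counts over the 16 libraries), as did 16414 genes in all. *Sele* passed it only through the libraries in which it was high, as described below. The question was how the selectins stood against the identity genes in muscle that had received histidyl-tRNA synthetase (HRS), the antigen targeted by anti-Jo-1 antibodies.

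All mice were female C57BL/6 animals aged 8 to 10 weeks, and muscle was taken 14 days after injection. In mice m862 to m866 the left hamstring had received HRS at 3 to 5 mg/mL (HRS legs, n = 5) and the right hamstring PBS (contralateral PBS legs, n = 5). Mice m867 and m868 had received PBS in both legs (PBS-only mice, n = 4 libraries of 2 animals). Mice m860 and m861 gave 1 library each (HRS-MBP, n = 2). Their titles name an MBP fusion protein at 2 to 3 mg/mL and no leg, whereas their treatment label is HRS. The general protocol speaks of 50 μL of HRS per side, in both hamstrings, but the titles of m862 to m866 name a different agent for each leg, and groups follow the titles. The contralateral legs belong to animals that carried HRS in the other leg, and the PBS-only libraries come from so few animals that they are not 4 independent mice. Nothing states that the legs were independent samples, so p-values measure the spread between these libraries. Libraries were run on several sequencing platforms with no statement of which was run where, so platform and treatment cannot be told apart.

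Endothelial cells are joined by VE-cadherin, are recognised by CD31 on their surface, and depend on the VEGF receptor VEGFR2 and the angiopoietin receptor Tie2 for growth and quiescence. In post-capillary venules, inflammatory cytokines switch on adhesion molecules that slow passing leukocytes. P-selectin is stored with von Willebrand factor in Weibel-Palade bodies and is moved to the surface within minutes, whereas E-selectin is made anew when the gene is transcribed. Both selectins bind carbohydrates carried by leukocyte proteins such as PSGL-1 and let the cells roll along the vessel wall.

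Implied depth was 37300000 to 73900000 reads in the HRS legs, 24700000 to 72800000 in the contralateral legs, 8600000 to 40700000 in the PBS-only libraries, and 37300000 and 39600000 in HRS-MBP. The tissue label was met by the summed level of 10 myofibre genes, which lay between 42706 and 198780 normalized counts in the HRS and contralateral legs, and each of the 10 was detected. One HRS leg stood apart from the others. In the HRS leg of m866 the 12 leukocyte genes summed to 1190, against up to 5913 in the other HRS legs and 105 to 289 in the contralateral legs. Its 8 fibroblast genes summed to 2539, within the range of the contralateral legs (1177 to 2818). Comparisons were therefore also made without both legs of m866.

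Both selectin genes lie on chromosome 1 in the deposited table, whose coordinates match GENCODE M21 (GRCm38). *Sele* (ENSMUSG00000026582.6) runs from 164048234 to 164057677 and *Selp* (ENSMUSG00000026580.16) from 164115264 to 164150026, both on the forward strand. The promoter table from RefSeq (GRCm38.p6) held 4 of the 10 members, *Sele*, *Selp*, *Kdr* and *Tek*. The 250 bases before the start of each selectin gene are printed because these genes moved together. Capitals mark TGANTCA, the motif bound by AP-1 factors, searched on both strands.
Sele, chr1:164047984-164048233, forward strand: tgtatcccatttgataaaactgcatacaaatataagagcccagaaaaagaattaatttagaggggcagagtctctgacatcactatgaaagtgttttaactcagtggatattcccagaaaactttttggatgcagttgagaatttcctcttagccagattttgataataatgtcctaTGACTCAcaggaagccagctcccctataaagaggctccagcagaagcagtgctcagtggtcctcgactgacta
Selp, chr1:164115014-164115263, forward strand: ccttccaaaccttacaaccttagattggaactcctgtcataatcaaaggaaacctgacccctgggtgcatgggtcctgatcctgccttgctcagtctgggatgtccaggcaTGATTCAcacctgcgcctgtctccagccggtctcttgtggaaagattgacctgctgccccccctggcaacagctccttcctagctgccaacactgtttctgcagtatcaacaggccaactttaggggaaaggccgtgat
TGANTCA was found once in each selectin window, from 73 to 67 bases before the start in *Sele* and from 139 to 133 in *Selp*, and overlapped no match of the other motifs searched, again on both strands. These were GGAA for ETS factors, GATA for GATA factors, the TATA box TATAAA, the CRE-like TGANNTCA, the STAT motif TTCNNNGAA and the kappaB consensus. It was absent from the *Kdr* and *Tek* windows and present in 6.75% of 32851 promoter windows of the same length. TATAAA was found in the *Sele* window and in 12.4% of all windows. That window also held TGANNTCA, from 176 to 169 bases before the start, and TTCNNNGAA, from 140 to 132. These lay in 11.9% and 7.02% of all windows, and not in the *Selp*, *Kdr* and *Tek* windows. GGAA and GATA were found in all 4 members' windows, and in 93.4% and 53.6% of all windows. The kappaB consensus, known as a binding site of NF-kappaB, was searched as GGGRNWYYCC (R is A or G, W is A or T, Y is C or T). It was matched in the *Kdr* window and in 3.9% of all, and not in the *Sele*, *Selp* and *Tek* windows. Sites that differ from this pattern would be missed, so a lack of a match does not show that a window has no such site. A match of letters is a description and not evidence of binding.

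Both selectins were higher in HRS muscle than in PBS muscle. *Selp*, the P-selectin gene, stood at 10.1, 9.6, 16.4, 9.31 and 11.6 normalized counts in the HRS legs of m862 to m866. The contralateral legs of the same mice held 2.33, 2.93, 2.71, 3.02 and 4.44, and the PBS-only libraries 1.66, 4.57, 4.5 and 3.51. Every HRS leg was thus above every PBS library, with the HRS leg of m864 highest. Against the contralateral legs *Selp* rose by 1.73 on the log2 scale of normalized count + 0.5 (95% confidence interval 1.24 to 2.22, limma, Benjamini-Hochberg adjusted p = 3.54e-05). In 5 of 5 mice the HRS leg had the higher value, by 1.29 to 2.40. An exact two-sided test that flips the signs of these differences gave p = 0.0625, and 5 mice cannot give a smaller one. Against the PBS-only mice the rise was 1.60 (1.08 to 2.12, limma, adjusted p = 0.000104). The group means were 11.4 ± 2.94 (SD, n = 5) in the HRS legs and 3.09 ± 0.803 (n = 5) in the contralateral legs.

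*Sele*, the E-selectin gene, was the lowest of the members and was close to its detection floor in PBS muscle. Its mean was 0.183 over the 9 PBS libraries and 1.37 over the 7 HRS libraries, so HRS muscle alone took it past the filter of 0.5. Its place among the genes tested and counted therefore depended on the groups in which it was high. It stood at 1.04, 1, 2.47, 1.17 and 1.53 in the HRS legs of m862 to m866, and at 0.032, 0.0989, 0.0462, 0.294 and 0.35 in their contralateral legs. The PBS-only libraries held 0.0809, 0.284, 0.456 and 0. No HRS leg overlapped a PBS library. The value of 0 came from the right leg of m868, the shallowest library, in which 3 reads would be worth 0.364. *Sele* rose by 1.53 (1.03 to 2.02, limma, adjusted p = 0.000117) against the contralateral legs, in 5 of 5 mice, and by 1.46 (0.93 to 1.99, adjusted p = 0.000246) against the PBS-only mice. Because of the pseudocount this scale understates the change of so low a gene, and the value against the contralateral legs was 2.65 with a pseudocount of 0.1 and 0.66 with 2. The group means were 1.44 ± 0.607 (SD, n = 5) in the HRS legs and 0.164 ± 0.148 (n = 5) in the contralateral legs.

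*Plvap*, which encodes the diaphragm protein of fenestrated and activated vessels, rose past 2-fold as the selectins did, unlike the other identity genes in the HRS legs. Its values were 68.1, 75.5, 103, 68 and 45.1 in the HRS legs and 25.1, 21.9, 23.8, 31.2 and 37 in the contralateral legs of m862 to m866. The PBS-only libraries held 14.9, 25.2, 27.9 and 29.2. The HRS leg of m866 was the lowest of its group and its contralateral leg the highest of its own, yet the HRS and PBS libraries did not overlap. *Plvap* rose by 1.33 (0.87 to 1.80, limma, adjusted p = 0.000215) against the contralateral legs, with differences of 0.28 in m866 to 2.09 in m864. Against the PBS-only mice the rise was 1.54 (1.05 to 2.04, adjusted p = 9.83e-05). For *Plvap*, *Sele* and *Selp*, an exact permutation of the 5 HRS legs and 4 PBS-only libraries gave a two-sided p of 0.00794, the smallest possible. With HRS-MBP included, all 7 HRS libraries were above all 9 PBS libraries for these 3 genes, a pattern that 15.4% of all tested genes had.

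Across all members, 5 of 10 were higher and 1 was lower in the HRS legs than in the contralateral legs at an adjusted p under 0.05. Over all tested genes the share was 35.1% higher and 25.9% lower. With so many genes past the test in this muscle, a count of 5 higher among 10 is not particular to the members. Past a log2 fold change of 1 as well, *Plvap*, *Sele* and *Selp* remained, and 16.9% of all genes were called higher by this rule. The median log2 fold change was 0.10 for the 8 identity genes and 1.63 for the 2 selectins, beside 0.08 over all genes. Against the PBS-only mice the same 6 members passed in the same directions, where 38.1% of all genes were higher and 22.6% lower. *Plvap*, *Sele* and *Selp* were again past a log2 fold change of 1, beside 18.9% of all genes. In both comparisons the members split into 4 higher and 2 lower with quantile normalization, and 5 higher and 2 lower with median-ratio rescaling. Between HRS and contralateral legs these settings put 25.3% and 31.7% of all genes higher, and 39.6% and 31.2% lower. For HRS legs and PBS-only mice the shares were 25.2% and 32% higher, and 38.9% and 30.5% lower. These comparisons share the HRS legs and are not independent.

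**Figure D1:**
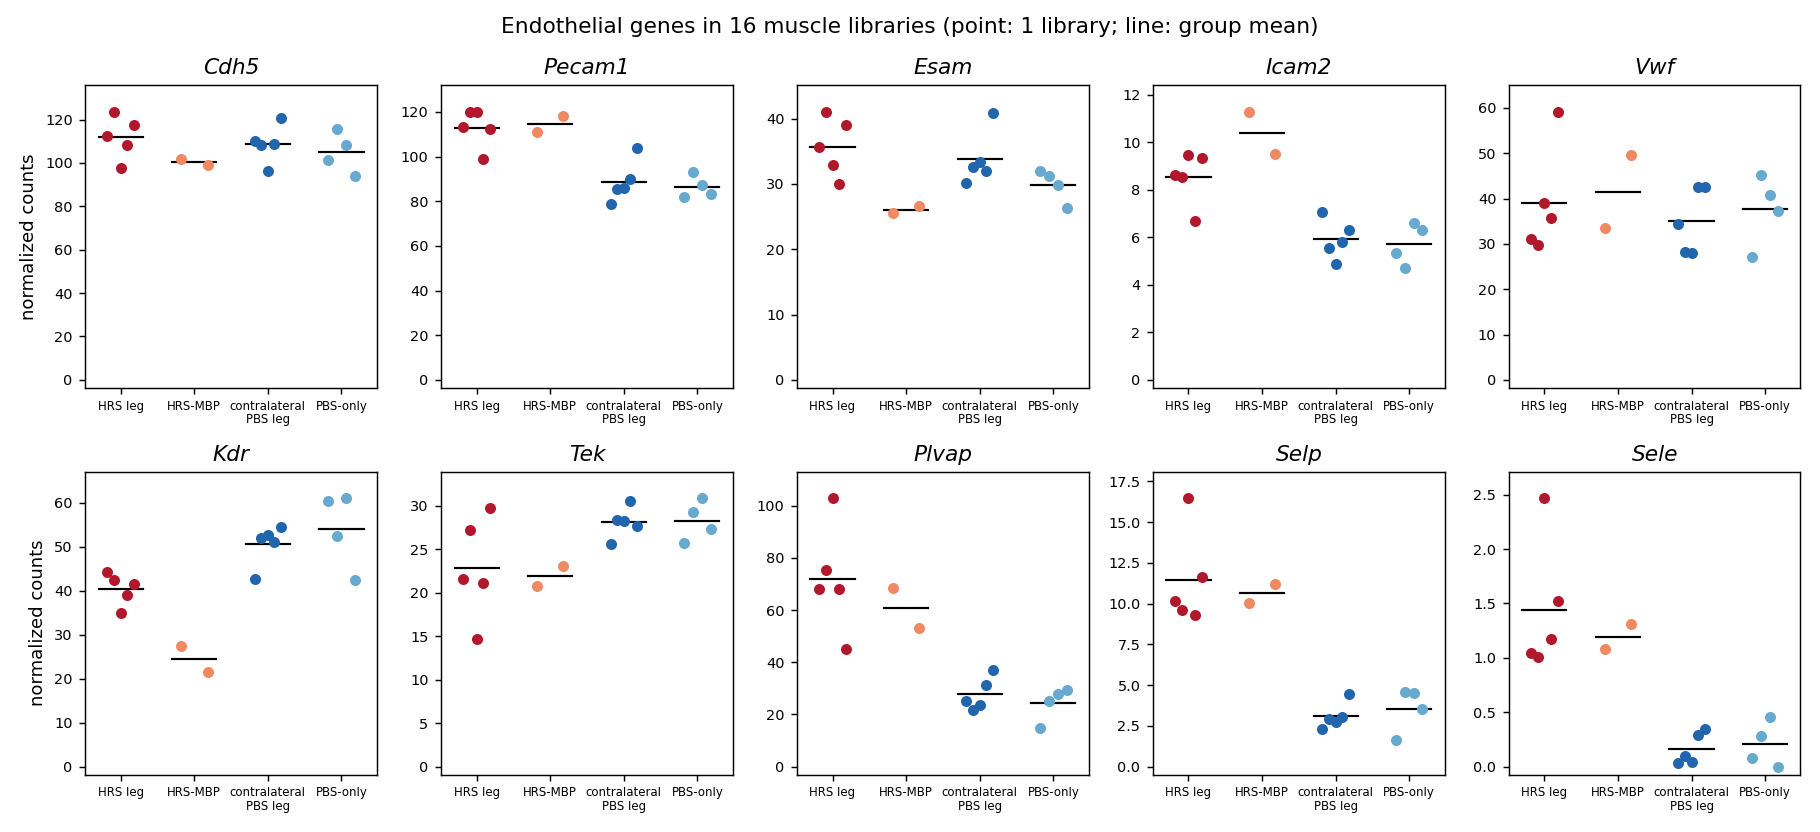
Normalized counts of the 10 endothelial genes, 1 panel per gene with a linear axis. Each point is 1 library and each line a group mean. *Sele*, *Selp* and *Plvap* separate the HRS legs and HRS-MBP from the contralateral PBS legs and PBS-only mice without overlap, whereas the *Cdh5* points of all groups lie between 94 and 124.

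Among the junction genes, *Cdh5* (chromosome 8 from 104101625 to 104144511), which encodes VE-cadherin, stayed within 1 range in all groups. It stood at 112, 124, 97.7, 108 and 118 in the HRS legs and at 110.0, 108, 96.2, 109 and 121 in the contralateral legs, so that both legs of m864 were the lowest of their groups. The PBS-only libraries held 101, 116, 108 and 94. The log2 fold change was 0.04 against the contralateral legs (-0.15 to 0.23, limma, adjusted p = 0.723) and 0.09 against the PBS-only mice (-0.11 to 0.30, adjusted p = 0.417). Both intervals left out a change of more than 0.30 in either direction. *Esam*, an immunoglobulin-family adhesion molecule of endothelial tight junctions, ranged from 29.9 to 41.1 in the HRS legs, 30.1 to 40.9 in the contralateral legs and 26.3 to 31.9 in the PBS-only mice. Its log2 fold change was 0.08 (-0.15 to 0.30, limma, adjusted p = 0.542) against the contralateral legs. Against the PBS-only mice it was 0.25 (adjusted p = 0.064), and 0.31 (adjusted p = 0.0309) without the HRS leg of m865.

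*Pecam1* and *Icam2* rose by less than the selectins. *Pecam1* (chromosome 11 from 106654217 to 106750628) encodes CD31, an adhesion protein of endothelium that leukocytes and platelets also carry. It stood at 113, 119.8, 120.1, 99 and 112 in the HRS legs and 78.7, 85.7, 85.9, 89.8 and 104 in the contralateral legs, with the right leg of m866 overlapping the HRS range. The PBS-only values were 82.1, 93.2, 87.2 and 83.3. *Pecam1* rose by 0.35 (0.16 to 0.54, limma, adjusted p = 0.00393) against the contralateral legs, and was higher in 5 of 5 mice. With mouse as a block in the fit, this adjusted p was 0.0566. The rise against the PBS-only mice was 0.38 (0.18 to 0.58, limma, adjusted p = 0.00331).

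*Icam2*, a ligand of the integrin LFA-1 that endothelium expresses at rest and that leukocytes and platelets also carry, lies on the same chromosome from 106377656 to 106388075. It stood at 8.63, 8.54, 9.45, 6.67 and 9.32 in the HRS legs and 7.05, 5.57, 4.9, 5.79 and 6.3 in the contralateral legs. The PBS-only libraries held 5.34, 4.69, 6.58 and 6.31, and 1 HRS leg, that of m865, fell within the range of PBS muscle. *Icam2* rose by 0.49 (0.21 to 0.77, limma, adjusted p = 0.00515), in 5 of 5 mice, and by 0.54 (adjusted p = 0.00444) against the PBS-only mice. This call depended on the scaling. With quantile normalization the median over all genes went from 0.08 to -0.16, and *Icam2* was at 0.08 (limma, adjusted p = 0.661) against the contralateral legs and 0.03 (adjusted p = 0.869) against the PBS-only mice.

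*Vwf* (chromosome 6 from 125546774 to 125686679), which encodes the clotting protein stored with P-selectin and is also expressed by megakaryocytes, did not pass the test. It ranged from 29.7 to 59.2 in the HRS legs, with the HRS leg of m866 highest, from 27.9 to 42.7 in the contralateral legs and from 27.1 to 45.2 in the PBS-only mice. The log2 fold change was 0.13 (-0.30 to 0.55, limma, adjusted p = 0.602) against the contralateral legs and 0.03 (-0.42 to 0.48, adjusted p = 0.911) against the PBS-only mice. These are the widest intervals among the identity genes apart from *Plvap*. Without the HRS leg of m866 the signs turned, to -0.035 and -0.13. The level of *Selp* per 100 *Vwf* was 19.6 to 42.2 in the HRS legs and 6.8 to 10.4 in the contralateral legs.

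Of the growth factor receptors, *Kdr* fell and *Tek* did not pass the test. *Kdr* (chromosome 5 from 75932827 to 75978458), the gene of VEGFR2, stood at 44.2, 42.5, 34.9, 38.9 and 41.6 in the HRS legs and 42.8, 51.9, 52.7, 51 and 54.4 in the contralateral legs. The PBS-only libraries held 60.3, 52.4, 60.9 and 42.5. Only the contralateral leg of m862 and the right leg of m868 overlapped the HRS legs. *Kdr* fell by 0.32 (-0.57 to -0.07, limma, adjusted p = 0.0257) against the contralateral legs and was lower in 4 of 5 mice, m862 being the exception. It fell by 0.41 against the PBS-only mice (-0.67 to -0.14, adjusted p = 0.0105). The first of these calls was near its threshold. Its adjusted p was 0.0712 with mouse as a block, 0.0677 and 0.0529 without the HRS legs of m864 and m865, and 0.0501, 0.0524 and 0.0514 without the contralateral legs of m863, m864 and m866.

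*Tek* (chromosome 4 from 94739289 to 94874976), the gene of Tie2, had values of 21.6, 27.2, 14.7, 21.1 and 29.8 in the HRS legs. The contralateral legs held 25.6, 28.3, 28.3, 30.6 and 27.7, and the PBS-only libraries 25.7, 29.2, 30.8 and 27.3. The HRS legs of m863 and m866 lay within the range of PBS muscle and the other 3 below it. The log2 fold change of -0.33 (-0.64 to -0.02, limma, adjusted p = 0.0637) did not pass, nor did -0.34 against the PBS-only mice (adjusted p = 0.0728). Without the HRS leg of m866 these values were -0.43 (adjusted p = 0.00978) and -0.44 (adjusted p = 0.012), and without that of m863 -0.40 (adjusted p = 0.0374) and -0.41 (adjusted p = 0.0433). Without the HRS leg of m864, the lowest, they were -0.18 (adjusted p = 0.176) and -0.19 (adjusted p = 0.181). Rescaling each library by its median ratio gave -0.40 (adjusted p = 0.025) and -0.47 (adjusted p = 0.0153). With quantile normalization *Tek* was also among the lower members in both comparisons. Over all alternatives its lowest values were -0.52 and -0.58.

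**Figure D2:**
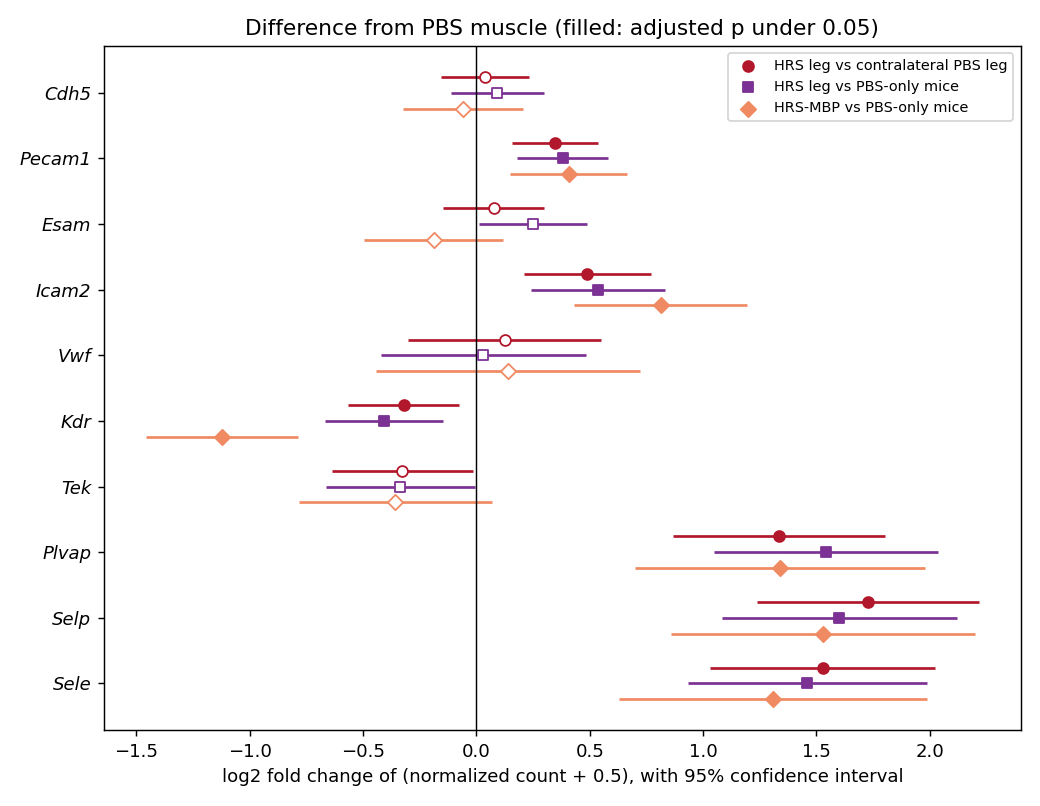
Log2 fold change of each gene on the log2(normalized count + 0.5) scale, with its 95% confidence interval from limma, for HRS legs against contralateral PBS legs, HRS legs against PBS-only mice and HRS-MBP against PBS-only mice. Filled symbols passed an adjusted p of 0.05. *Plvap*, *Selp* and *Sele* lie above 1 in all 3 comparisons, *Cdh5* and *Vwf* span 0, and *Kdr* in HRS-MBP lies at -1.12.

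Differences within single mice showed which animals carried the changes. Mouse m864 had the largest rise of *Sele* (2.44), *Selp* (2.40), *Plvap* (2.09) and *Icam2* (0.88), and the largest decrease of *Kdr* (-0.59) and *Tek* (-0.92). Its 12 leukocyte genes also summed to the highest value, 5913. Mouse m866 had the smallest difference of *Selp* (1.29), *Plvap* (0.28) and *Pecam1* (0.11), and its leukocyte sum was the lowest of the HRS legs. Yet its HRS leg held 11.6 of *Selp* and 1.53 of *Sele*, the highest values after those of m864. Its contralateral leg was the highest of that group for both genes, at 4.44 and 0.35. The difference of *Sele* in m866 was 1.25, above the 1.08 of m865. Without both legs of m866, 38.9% of all genes were higher and 31.3% lower, more than with all libraries. In that fit 7 members passed in place of 6, *Tek* being added (-0.44, limma, adjusted p = 0.014), and *Selp* rose by 1.84, *Sele* by 1.60 and *Plvap* by 1.60.

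**Figure D3:**
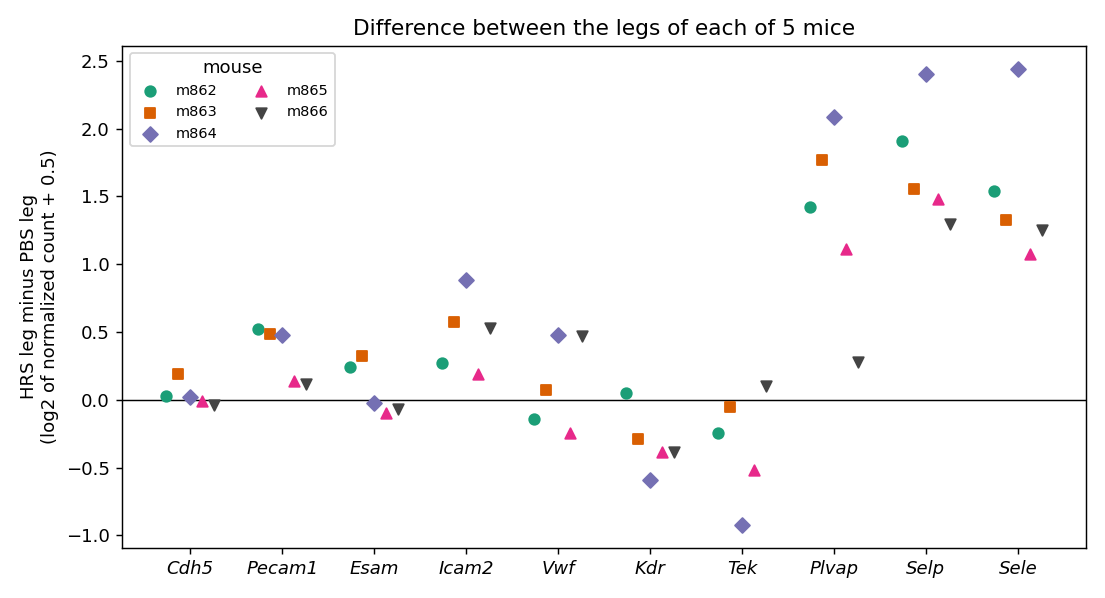
Difference between the HRS leg and the contralateral PBS leg of each of 5 mice, in log2 of normalized count + 0.5. Each symbol is 1 mouse. All 5 mice lie above 0 for *Pecam1*, *Icam2*, *Plvap*, *Selp* and *Sele*, with m864 highest in the last 3 and m866 at 0.28 for *Plvap*.

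In bulk muscle, fewer cells of a type and less RNA per cell cannot be told apart, so members were also expressed per 100 normalized counts of *Cdh5* in the same library, as a description. *Selp* per 100 *Cdh5* was 7.77 to 16.8 in the HRS legs, 2.12 to 3.67 in the contralateral legs and 1.63 to 4.15 in the PBS-only mice. *Sele* per 100 *Cdh5* was 0.812 to 2.52, 0.0291 to 0.289 and 0 to 0.421 in the same order. The HRS range lay above the others for both selectins. *Plvap* per 100 *Cdh5* had medians of 61.1, 24.7 and 23.8. For *Kdr* the HRS legs lay between 34.4 and 39.4, the contralateral legs between 38.9 and 54.8, and the PBS-only mice between 45.2 and 59.5. *Sele* per 100 *Selp* was 10.3 to 15 in the HRS legs (median 12.6), 1.37 to 9.73 in the contralateral legs (median 3.37) and 0 to 10.1 in the PBS-only mice. The HRS range began just above the others, whose *Sele* values were near the floor.

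**Figure D4:**
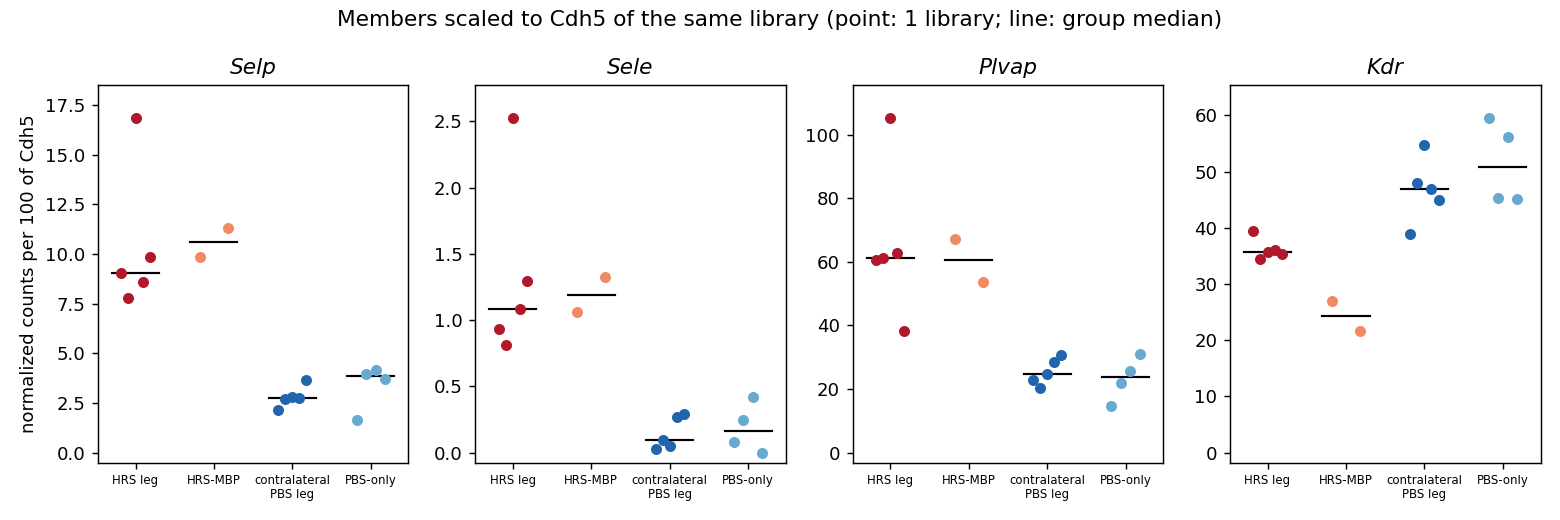
*Selp*, *Sele*, *Plvap* and *Kdr* per 100 normalized counts of *Cdh5* in the same library. Points are libraries and lines are group medians. The HRS legs and HRS-MBP lie above all PBS libraries for *Selp*, *Sele* and *Plvap*, and HRS-MBP lies lowest for *Kdr*.

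Levels were set in order within each group as normalized counts per kilobase of merged exon. These lengths join the exons of all annotated transcripts (16.1 kb for *Vwf*, 4.41 kb for *Selp*), and the order depends on them. In the PBS-only mice *Cdh5* was highest at 25 (22.4 to 27.5), followed by *Pecam1* at 13.9, *Plvap* at 12.2 and *Esam* at 10.4. *Pecam1* overlapped *Plvap*, and *Plvap* overlapped *Esam*, over the libraries. *Tek* and *Kdr* followed at 6 each and overlapped, then *Icam2* at 3.01 and *Vwf* at 2.34, which also overlapped, *Selp* at 0.806 and *Sele* at 0.0705. In the HRS legs *Plvap* came first at 36.2 (22.7 to 51.7), overlapping *Cdh5* at 26.6 (23.2 to 29.4). *Selp* there reached 2.59 (2.11 to 3.73), level with *Vwf* at 2.43 (1.85 to 3.68), and *Sele* stayed last at 0.495. *Icam2* and *Kdr* were at 4.48 and 4.47 per kilobase, whereas in PBS muscle *Kdr* had been above *Icam2* without overlap.

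The contralateral PBS legs and the PBS-only mice were compared to ask whether the PBS leg of an HRS mouse differed from muscle of animals without HRS. None of the 10 members passed in limma, and 0 had an unadjusted p under 0.05, where 0.00609% of all genes passed in either direction. The log2 fold changes ran from -0.13 for *Selp* (-0.64 to 0.39) to 0.21 for *Plvap* (-0.29 to 0.70). *Esam* was at 0.17 (-0.06 to 0.41).

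The HRS-MBP libraries of m860 and m861 showed the same 6 members past the test against the PBS-only mice, where 33.2% of all genes were higher and 23.8% lower. Past a log2 fold change of 1 as well were *Plvap*, *Sele* and *Selp* (higher, as 20.7% of all genes) and *Kdr* (lower, as 10.2%). These libraries are compared with the same PBS-only controls as the HRS legs. *Selp* stood at 10 and 11.2 and rose by 1.53 (0.86 to 2.20, limma, adjusted p = 0.0011). *Sele* stood at 1.08 and 1.31 and rose by 1.31 (0.63 to 1.99, adjusted p = 0.00343), and *Plvap* at 68.6 and 53 rose by 1.34 (0.70 to 1.98, adjusted p = 0.00202). Both libraries lay within the HRS legs for these 3 genes. *Icam2* stood at 11.3 and 9.52, both above every HRS leg, and rose by 0.81 (limma, adjusted p = 0.0018). *Pecam1*, at 111 and 118, rose by 0.41 (adjusted p = 0.0109), and its adjusted p was 0.0875 without m861. Under quantile normalization *Icam2* was at 0.31 (adjusted p = 0.198), and the split of members was 4 higher and 3 lower, beside 23.4% higher and 38.7% lower over all genes. The lower members there were *Kdr*, *Tek* and *Esam*.

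*Kdr* stood at 27.5 and 21.5 in HRS-MBP, below all other 14 libraries. It fell by 1.12 (-1.46 to -0.79, limma, adjusted p = 4.78e-05) against the PBS-only mice. It was also the only member that passed between HRS-MBP and the HRS legs, at -0.72 (-1.04 to -0.39, adjusted p = 0.0495), where 0.134% of all genes were lower and 0.426% higher. This call was lost in 9 alternatives. Its adjusted p was 0.114, 0.115 and 0.102 without the HRS legs of m862, m863 and m865, and 0.999 without m861, a fit that assumes the remaining HRS-MBP library to vary like the other groups. *Tek* (20.8 and 23.1) and *Cdh5* (102 and 99) had log2 fold changes of -0.36 (adjusted p = 0.138) and -0.06 (adjusted p = 0.701) against the PBS-only mice. The value of *Tek* depended on the setting and reached -0.61 over the alternatives. *Vwf*, at 33.5 and 49.6, was at 0.14 (adjusted p = 0.679). *Esam* stood at 25.5 and 26.6, below every HRS leg, with -0.44 (-0.73 to -0.14, limma, adjusted p = 0.185) between HRS-MBP and the HRS legs. The leukocyte genes summed to 4796 and 5049 in HRS-MBP, above 4 of the 5 HRS legs, and their part in these values was not tested.

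Other genes of the endothelium were read from lists written for this purpose, and the counts that follow are for HRS legs against contralateral legs in limma, where 35.1% of all genes were higher and 25.9% lower. With mouse as a block these shares were 27.8% and 16.2%, and under quantile normalization 25.3% and 39.6%. Of 24 further identity genes, 6 were higher and 3 lower, with a median log2 fold change of 0.06 beside 0.08 over all genes. *Tie1*, an orphan receptor that partners Tie2, was at 0.02 (adjusted p = 0.889), and *Erg*, a transcription factor that maintains endothelial identity, at 0.04 (adjusted p = 0.843). *Cldn5*, a tight junction claudin, was at -0.03 (adjusted p = 0.924), although it fell by 1.08 in HRS-MBP against the PBS-only mice (adjusted p = 0.00607). The largest changes were those of *Cd34* (0.98) and *Ecscr* (0.95), and *Cd34* is also carried by fibroblast-like progenitors in muscle. Quantile normalization put *Cd34* at 1.16 and *Ecscr* at 0.55. The latter was then smaller than the changes of *Nos3* (-0.80), *Cyyr1* (-0.62), *Myct1* (-0.59) and *Ptprb* (-0.58), named after their values were seen. Under quantile normalization the list had 4 higher and 7 lower, and a median of -0.15, with mouse as a block 5 higher and 2 lower, and without both legs of m866 7 higher and 5 lower.

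Of 13 genes of leukocyte adhesion and venular activation, 11 were tested, of which 6 were higher and 3 lower, with a median of 0.47. *Icam1*, the inducible ligand of LFA-1, rose by 2.87 (limma, adjusted p = 2.73e-06), and *Vcam1*, the ligand of VLA-4, by 2.61 (adjusted p = 6.83e-06). Macrophages and fibroblasts also express both. *Ackr1*, a chemokine-binding receptor of venules, rose by 0.84 (adjusted p = 0.00152), from 4.11 to 5.08 in the contralateral legs to 6.11 to 11.1 in the HRS legs. Under quantile normalization it was at 0.41 (adjusted p = 0.0599), and 4 genes of the list were higher and 3 lower. *Madcam1*, the addressin of gut venules, was under the filter, at 0 to 0.304 in the HRS legs. The lower genes were *Cd99l2*, *Jam2* and *Podxl*, named after their values were seen. With mouse as a block 5 were higher and 1 lower, and the adjusted p was 0.122 for *Jam2*, 0.0904 for *Podxl* and 0.0533 for *F11r*, which was among the higher genes.

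Among 12 counter-receptor and glycosylation genes of the selectins, 10 were higher and 2 lower (10 and 1 with mouse as a block), with a median of 1.73. *Selplg*, the gene of PSGL-1, rose by 3.35 (limma, adjusted p = 5.37e-06) from 1.86 to 5.14 in the contralateral legs to 19.5 to 82.4 in the HRS legs. *Spn*, the gene of the leukocyte sialoglycoprotein CD43, rose by 3.74 (adjusted p = 1.96e-06). *Selplg* and *Spn* are expressed mainly by leukocytes. In a list of 11 cytokines and cytokine receptors that induce selectins in cultured endothelium, 10 were in the table, 7 were tested and all 7 were higher. *Tnf* rose by 3.46 (adjusted p = 2.1e-06) and *Il1b* by 3.91 (adjusted p = 8.94e-06). The median of the 7 was 1.85.

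The list of Weibel-Palade body and von Willebrand factor handling genes had 13 of 14 members tested, with 9 higher, 1 lower and a median of 0.84. *Procr*, the endothelial protein C receptor, rose by 1.56 (limma, adjusted p = 0.00124), and *Unc13d*, a vesicle priming factor also used by cytotoxic lymphocytes, by 3.01 (adjusted p = 3.37e-06). With mouse as a block 8 were higher and 0 lower, and under quantile normalization 7 and 0. The lower gene, *Ece1*, lost its call in both (limma, adjusted p = 0.0697 and 0.0703). Junction partners of VE-cadherin and connexins had 11 of 12 tested, with 6 higher, 3 lower and a median of 0.52. The connexin genes *Gja5* and *Gja1* rose by 0.80 (adjusted p = 0.00408) and 0.76 (adjusted p = 0.0142). *Gja5* was at 0.37 under quantile normalization (adjusted p = 0.0777), and *Gja1* had an adjusted p of 0.0583 with mouse as a block. The counts were 5 higher and 2 lower in the former setting and 4 and 2 in the latter.

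Ligands and receptors of the VEGF and angiopoietin pathways were split, with 8 of 15 higher, 3 lower and a median of 0.59. Under quantile normalization 5 were higher and 4 lower, with a median of 0.20. *Vegfa*, the main ligand of VEGFR2, fell by 1.08 (limma, adjusted p = 0.000995), from 189 to 263 in the contralateral legs to 76.1 to 216 in the HRS legs. Muscle fibres are a main source of this ligand. *Angpt2*, an angiopoietin stored in Weibel-Palade bodies that acts on Tie2, rose by 1.02 (adjusted p = 0.000436), and by 0.59 (adjusted p = 0.0036) under quantile normalization. *Nrp2*, a VEGF co-receptor also found on myeloid cells, rose by 2.08 (adjusted p = 1.08e-05), and *Apln*, the ligand of the apelin receptor, by 1.52 (adjusted p = 0.00255).

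Of 13 capillary transport genes, 6 were lower, 1 was higher and 6 did not pass, with a median of -0.53, beside 25.9% lower and 35.1% higher over all genes. *Car4*, the capillary carbonic anhydrase, fell by 1.55 (limma, adjusted p = 0.00183), and *Aqp1*, the water channel, by 1.18 (adjusted p = 0.00195). Against the PBS-only mice 3 of the 13 were lower and 1 higher, with a median of -0.34, beside 22.6% lower and 38.1% higher over all genes. *Car4* was there at -0.45 (limma, adjusted p = 0.304), whereas *Aqp1* fell by 1.02 (adjusted p = 0.00661). The mean of *Car4* was 5.61 in the contralateral legs and 2.16 in the PBS-only mice (adjusted p = 0.801). The 13 genes summed to 4873.5 in the contralateral leg of m866, beside a median of 2376 in its group. *Aqp1* was at 411 in the HRS leg of m866, the highest of a group whose median was 136. Under quantile normalization 5 capillary genes were lower and 0 higher. Of 10 arterial genes, 2 were higher and 1 lower, the largest being *Fbln5* (0.72) and *Notch1* (0.69). The balance depended on the setting, with 1 higher and 5 lower (median -0.27) under quantile normalization, and 1 higher and 0 lower with mouse as a block. *Fbln5* had an adjusted p of 0.0585 under quantile normalization and 0.0772 with mouse as a block. Of 8 lymphatic genes, 5 were higher (4 higher and 1 lower under quantile normalization), led by *Ccl21a* (2.18) and *Pdpn* (1.74), which stromal cells also express. *Prox1*, the defining lymphatic transcription factor, was at 0.47 (adjusted p = 0.083) and *Lyve1* at -0.37 (adjusted p = 0.246). Under quantile normalization *Prox1* was at 0.03 (limma, adjusted p = 0.918), and *Lyve1* was the lower gene, at -0.73 (adjusted p = 0.021).

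Markers of other cells moved with the selectins. All 12 leukocyte genes were higher (11 under quantile normalization, where *Cd79a* had an adjusted p of 0.0582), with a median of 3.59, and *Ptprc*, which encodes CD45, rose by 3.93 (limma, adjusted p = 1.96e-06). The largest of the list were *Cd52* (4.21) and *Adgre1* (4.13). Platelets also carry P-selectin. Of 12 platelet and megakaryocyte genes, 5 were tested, 4 higher and 1 lower. Under quantile normalization 3 were higher and 1 lower, with *Ppbp* at 0.44 (limma, adjusted p = 0.0962). *Itgb3* rose by 1.78 (adjusted p = 0.000551) and *Pf4* by 1.58 (adjusted p = 0.00266), and macrophages also express both. The lower gene was *Gp1ba*, a platelet receptor gene named after its value was seen, which fell by 0.81 (adjusted p = 0.00314). The sum of the 12 was 19.2 to 69.1 in the HRS legs, 10.7 to 19.6 in the contralateral legs and 9.06 to 13.9 in the PBS-only mice, while *Gp9*, a platelet glycoprotein gene, was at 0 to 0.0712 in the HRS legs.

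Mural cell genes had 2 of 12 higher and 5 lower. *Acta2* rose by 0.83, *Pdgfrb* by 0.50 and *Abcc9* fell by 0.94, and with mouse as a block the adjusted p was 0.0533 for *Acta2* and 0.0557 for *Pdgfrb*. In that fit 0 were higher and 3 lower, since *Rgs4* (adjusted p = 0.0554) and *Rgs5* (0.056) lost their calls too. Without both legs of m866, 5 were higher and 5 lower. All 8 fibroblast genes were higher (7 with mouse as a block), led by *Col1a1* (3.40) and *Col3a1* (2.98). Of 10 myofibre genes, 6 were lower, led by *Tnni2* (-1.22) and *Ckm* (-1.18). With mouse as a block their adjusted p was 0.105 and 0.328, and 0 of the 10 passed. Under quantile normalization 1 of the 10 was lower and the median was -0.12 in place of -1.06, with *Ckm* at -0.25 (adjusted p = 0.207), and without both legs of m866 all 10 were lower. The part of these shifts in the members' values was not tested.

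Likeness of pattern was described by Pearson's r of log2 values over the 16 libraries of both treatments, with no test. The gene most like *Sele* was *Selp* (r = 0.96), and *Impa1* (0.95) and *Tlr3* (0.94) were among the closest 5. For *Selp* it was *Vwa5a* (0.97), ahead of *Sele*, *Cd244a* and *Osmr*. The gene most like *Plvap* was *Imp4* (0.97), ahead of *Gm47445*, *Sema7a* and *Tradd*. The gene most like *Cdh5* was *Tie1* (0.89), ahead of *Zfp772*, *Npr1*, *Olfr558* and *Dock6* (0.82 to 0.78). All these values come from the same libraries, which share treatment groups and tissue makeup.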

How the data were processed

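Bulk RNA was sequenced from hamstring muscle in 16 libraries of 9 mice, from poly(A)-selected RNA with a directional kit. The authors deposited normalized counts per gene, a non-negative signal that was not treated as read counts here. The submitters' processing notes name STAR 2.7.8a and limma, and the scaling is not given in the sources used here. The notes name GRCm39 and mm39, whereas the coordinates in the table match GENCODE M21 (GRCm38) for all 10 members, so GRCm38 was used. Among low values, between 74.9% and 77.0% per library fell on whole steps (within 0.02 of a step). This is too few for reads to be taken as recovered, so the step gave only an implied depth and a floor of 3 reads, both approximate. Strand use in counting is not given in the sources used here, so overlapping genes are uncertain.

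Linear models were fitted with limma 3.58.1 under R 4.3.3, with variances moderated along the mean. The response was log2(normalized count + 0.5), and genes whose mean was under 0.5 were left out, which kept 16414. The 4 groups shared 1 fit. Adjusted p is Benjamini-Hochberg over all tested genes, a gene passed at 0.05, and it was called when the absolute log2 fold change was also above 1. The procedure was tested on simulated data. Single members were compared by exact sign flips over 5 mice and exact permutation of 9 libraries. Levels per kilobase used the merged exons of GENCODE M21. Promoter windows were read from RefSeq tables.

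The members and the 15 lists (184 genes, 183 in the table) were chosen with earlier results of these data known. The text names all members, the top 2 genes of every list by size of change among those that passed between HRS and contralateral legs, and 16 genes fixed by name. The 5 genes most like *Sele*, *Selp*, *Cdh5* and *Plvap* were taken by Pearson's r. Some genes that these rules name are not reported here.

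The legs of m862 to m866 are paired by animal, from the mouse label. Deviations of both legs from their group means correlated across genes at 0.119, 0.163, 0.0972, -0.0256 and -0.366. The fit had no block, and mouse as a block was an alternative. The others were the pseudocount, the filter, quantile and median-ratio scaling, no mean trend, mouse as a random effect, only the groups compared, PBS-only legs averaged per mouse, and each library left out. Leaving out both legs of m866 was added after the data were seen.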

Additional observations from a re-analysis of the deposited data

Results flagged for a closer look

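*Kdr* differed between the groups that received an HRS preparation, by -0.72 on the log2 scale of normalized count + 0.5 in HRS-MBP relative to the HRS legs (95% confidence interval -1.04 to -0.39, limma, adjusted p = 0.0495). The HRS-MBP libraries held 27.5 and 21.5, and the HRS legs 34.9 to 44.2. The threshold was missed in 9 of 17 alternatives, with an adjusted p between 0.00864 and 0.999 over all of them. *Kdr* is the member that set these groups apart in the test. No library lay far from the rest of its group by Dixon's test in any of the 30 groups of member values examined, where chance flags about 1 in 20 groups.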

How the results depend on the processing

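The 5 members higher in HRS legs and *Kdr* passed with either pseudocount, without the filter, without the mean trend and, against the PBS-only mice, with their legs averaged per mouse. The count between HRS and contralateral legs was 4 with mouse as replicate block, which pairs the legs of each mouse and lost *Pecam1* and *Kdr*, and it changed no other call among the members. *Sele*, *Selp* and *Plvap* passed in every alternative run for the 3 comparisons with PBS. A mean of at least 2 removed *Sele* from the test. Between HRS-MBP and the HRS legs the count was 0 with a pseudocount of 0.1, with the filter at a mean of 2, with median-ratio rescaling, without the mean trend and with only the groups compared, and it was 0 to 1 when single libraries were left out.

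Signs turned only for values that had not passed in the comparison concerned. Median-ratio rescaling took *Cdh5* to -0.038 against the contralateral legs and -0.046 against the PBS-only mice, and *Vwf* to -0.11 against the latter. Quantile normalization took *Esam* to -0.029 against the contralateral legs, *Vwf* to -0.12 in HRS legs and -0.0048 in HRS-MBP against the PBS-only mice, and *Cdh5* in HRS-MBP to 0.022. Leaving out single libraries gave *Cdh5* -0.0044 (without the contralateral leg of m864) to 0.087 and *Vwf* -0.035 (without the HRS leg of m866) to 0.21 between HRS and contralateral legs. Against the PBS-only mice *Vwf* in HRS legs ran from -0.13 (without the HRS leg of m866, as without both legs) to 0.13, and was -0.12 without the left leg of m867. *Vwf* in HRS-MBP ran from -0.14 (without m861) to 0.42, and was -0.0079 without the left leg of m867. In contralateral legs *Plvap* ran from -0.0064 (without the left leg of m867) to 0.31 and *Selp* from -0.40 to 0.0058 (without the right leg of m867). The cause was not tested. Depth limits *Sele* most, since the floor of 3 reads was 0.0324 to 0.364 normalized counts.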
